A study of Mus musculus with 15 samples.

Results

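The expression of 8 genes of arginine and polyamine metabolism was followed across mouse bone marrow-derived macrophages (BMDMs) polarized with IL-4 or IL-13, with or without IL-6. They were taken as a named list of arginine transporters and of enzymes that make or use arginine, ornithine or polyamines. The list was Nos2, Slc7a1, Slc7a2, Ass1, Odc1, Oat, Srm and Sms, and all 8 were found among the 53465 genes counted. Arginine enters macrophages through cationic amino acid transporters and is then split into ornithine and urea, or oxidized by nitric oxide synthase to citrulline and nitric oxide. Ornithine decarboxylase turns ornithine into putrescine, from which spermidine and then spermine are built, while ornithine aminotransferase leads ornithine toward glutamate and proline. High inducible nitric oxide synthase is a textbook mark of macrophages activated by interferon and bacterial products.

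Mature BMDMs, grown for 7 days from mouse bone marrow with M-CSF at 20 ng/ml, were left without added cytokine (control) or received cytokine for 24 h. The 4 treated groups were IL-4 at 10 ng/ml, IL-4 combined with IL-6 at 40 ng/ml (IL-4+IL-6), IL-13 at 40 ng/ml, and IL-13 combined with IL-6 at these doses (IL-6+IL-13). Each of the 5 groups had 3 RNAseq libraries, and summed counts per library were between 17001352 and 18918686. The methods of the study describe marrow from mice of 8 to 12 weeks of age, and the labels of these libraries give no genotype. IL-6 was not given alone in these libraries, so an IL-6 effect here is always an effect on top of IL-4 or IL-13. The labels number the replicates but do not say whether they came from separate mice or cultures. The study calls RNAseq samples of a treatment group biological replicates and speaks in general of independent experiments, but does not say what was separate for these libraries, so p-values measure the spread between these libraries.

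Before the genes themselves, the makeup of the libraries was examined with markers of macrophages and of other marrow cells. All 7 macrophage markers were present in every library, at a summed level of 18634 to 20805 CPM (counts per 1000000, with TMM-scaled library sizes) in control and 10850 to 19488 CPM in the treated groups. The control libraries stood apart from the 12 treated libraries by markers of other marrow cells. The 8 markers of granulocytes and their precursors, among them the antimicrobial and granule genes Ngp, Ltf, Elane and Mpo, summed to 463 to 550 CPM in control and to 0.978 to 2.14 CPM in the treated libraries. Dendritic cell markers summed to 15.02 to 17.23 CPM against 0.169 to 1.04 CPM, and stromal markers to 15.8 to 20.1 CPM against 0 to 0.230 CPM. Of the 5 stromal markers, 4 had at most 3 counts in every treated library, as did 3 of the 8 granulocyte markers. B cell markers summed to 4.43 to 5.09 CPM in control and 0.154 to 0.900 CPM in the treated libraries, and mast cell and basophil markers to 5.10 to 5.99 CPM and 0 to 0.236 CPM. Megakaryocyte markers, 4 in all, summed to 360.2 to 406 CPM in control, 70.1 to 74.7 CPM with IL-4 and 72.6 to 89.6 CPM with IL-13, and were higher with IL-6, at 175 to 314 CPM with IL-4+IL-6 and 348 to 421 CPM with IL-6+IL-13, with Gp9 at no more than 3 counts in every library of IL-4, IL-4+IL-6 and IL-6+IL-13. The macrophage markers were lower with IL-6, at 10850 to 12643 CPM with IL-4+IL-6 against 14196 to 14672 CPM with IL-4, and at 13696 to 14587 CPM with IL-6+IL-13 against 16811 to 19488 CPM with IL-13. T cell and erythroid markers summed to under 1 CPM everywhere. In every comparison with control, the effect of the cytokine and that of the other cells in the control libraries cannot be told apart. Comparisons among the treated groups do not use the control level, and were also made in a fit without the control libraries.

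**Figure D1:**
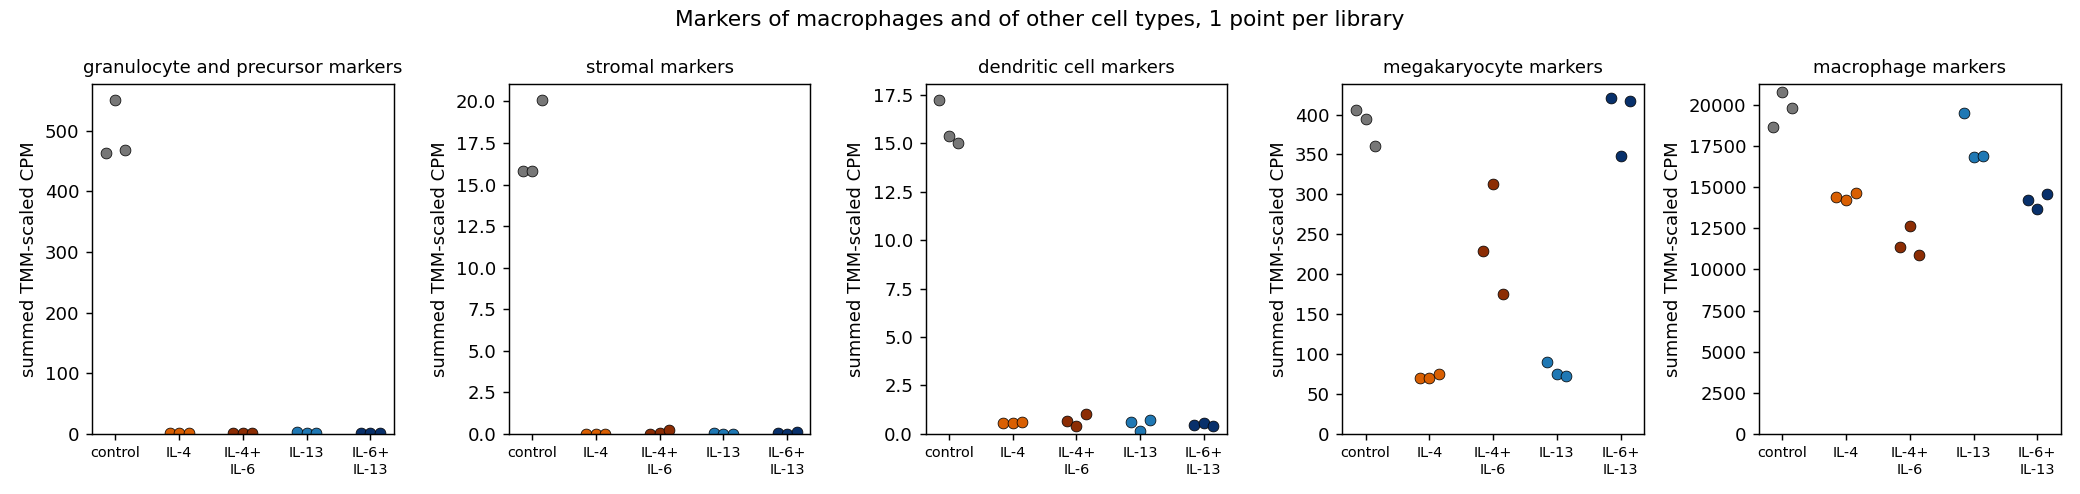
Summed level of granulocyte, stromal, dendritic cell, megakaryocyte and macrophage markers (TMM-scaled CPM, linear axes from 0, a scale of its own per panel) in each of the 15 libraries, 1 point per library, by group. In the first 3 panels the 3 control points lie above all treated points, with granulocyte markers at 463 to 550 CPM against at most 2.14 CPM, and the megakaryocyte markers are higher with IL-6 than without it among the treated groups.

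Levels per gene length are given in FPKM (counts per kilobase of gene length and per 1000000 counts of the library, as deposited). In control the highest of the 8 genes was Oat, with 58.5% of their summed FPKM. Oat was also the highest with IL-4, with IL-13 and with IL-6+IL-13, at 25.997%, 33.1% and 33.2% of the sum. With IL-4+IL-6 Slc7a2 was the highest, at 26.3%, and Odc1 followed with 24.3%. Since RNA of whole cultures was sequenced, a change in the number of expressing cells and a change in RNA per cell cannot be told apart here or below.

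**Figure D2:**
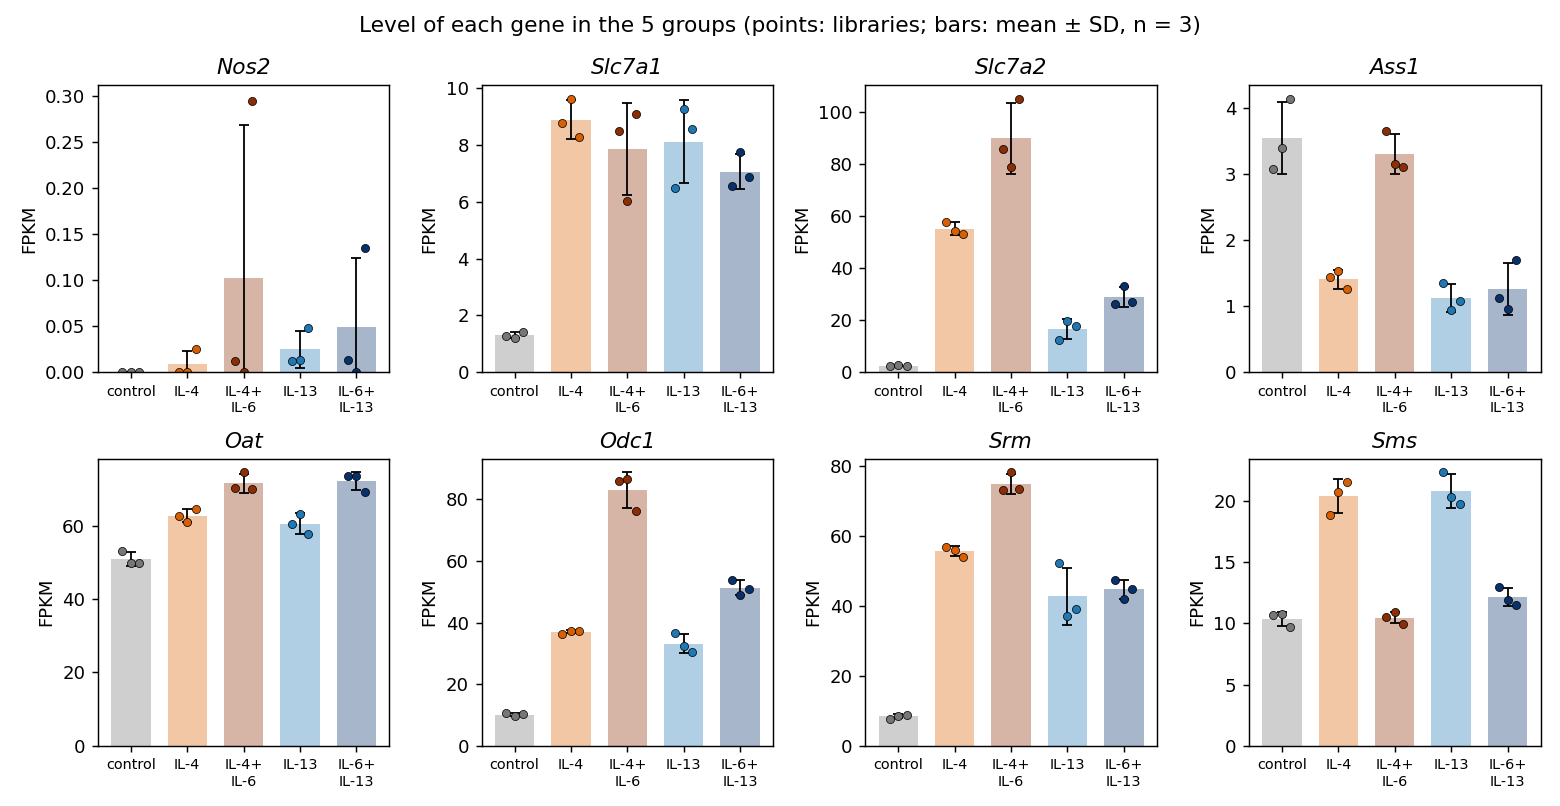
Level (FPKM, linear axes from 0, a scale of its own per gene) of the 8 genes in the 5 groups; points are libraries, bars are means and error bars SD (n = 3). Slc7a2, Odc1 and Srm are highest in IL-4+IL-6, and Sms is highest in IL-4 and IL-13 without IL-6.

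Of the 8 genes, 7 passed the filter on low counts and were tested, and Nos2 did not. With IL-4 over control, 6 rose and 1 fell, against 68% of all 13938 tested genes called in either direction, and with IL-13 the counts were also 6 and 1, against 60.1%. The median log2 fold change of the 7 was 1.91 with IL-4 and 1.73 with IL-13, and that of all tested genes was -0.05 and -0.02. With co-addition of IL-6, 5 rose and 1 fell over IL-4 alone (39.4% of all tested genes called), and 3 rose and 1 fell over IL-13 alone (25.6%). The median of the 7 was 0.53 and 0.23, and that of all tested genes 0.04 and 0.01. The summed megakaryocyte markers were higher and the summed macrophage markers lower in the same comparisons (ranges above, without overlap), and their part in the IL-6 results was not tested. With IL-4+IL-6 over control, 5 rose and 0 fell (72.9% of all tested genes called), and with IL-6+IL-13 over control, 6 rose and 1 fell (64%). The effects of IL-6 with IL-4 and with IL-13 differed for 2 of the 7, namely Ass1 and Odc1, against 7.64% of all tested genes. The comparisons with control share the same 3 control libraries.

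**Figure D3:**
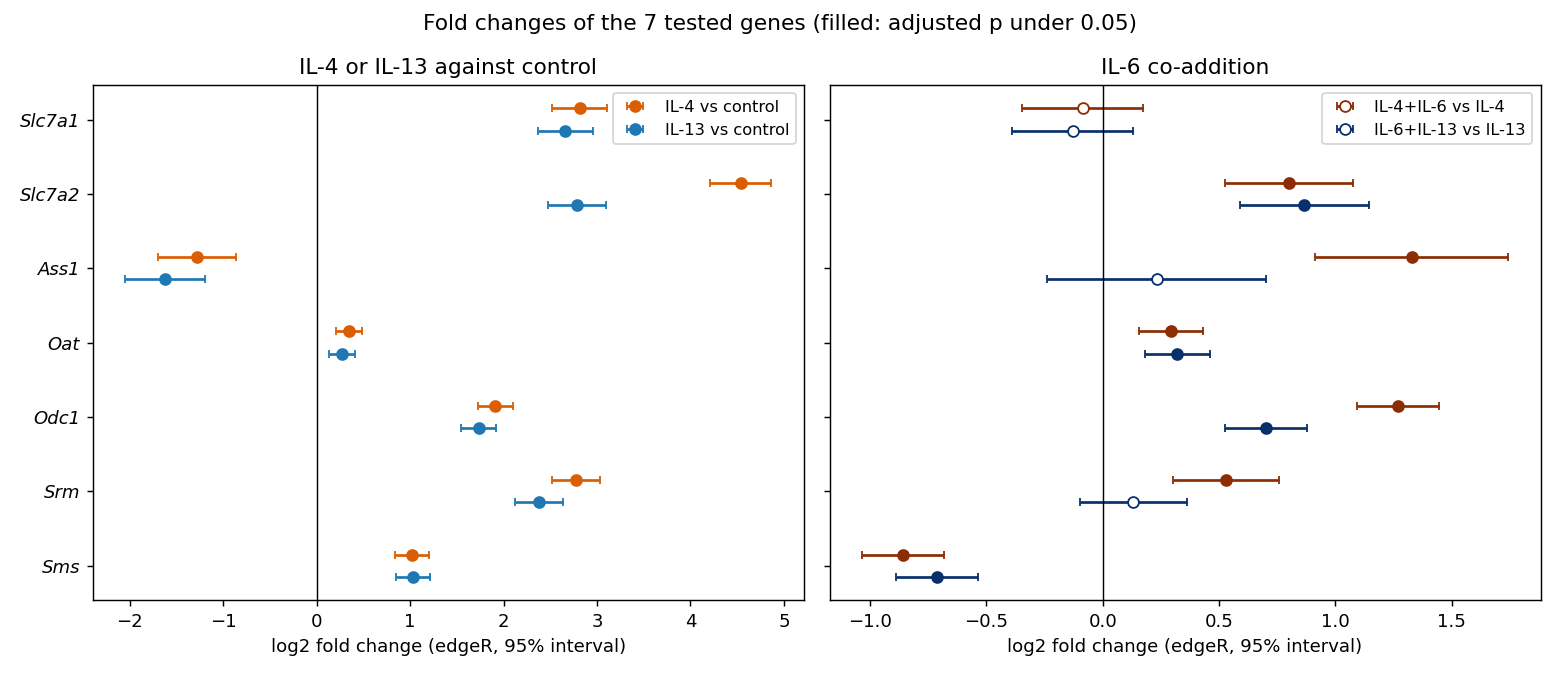
Log2 fold change with its 95% interval (edgeR) of the 7 tested genes, for IL-4 and IL-13 over control (left) and for IL-6 added to either (right); filled symbols passed an adjusted p of 0.05, and the 2 panels have different scales. Left, Ass1 lies below 0 and the other 6 above; right, Sms lies below 0 for both.

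Nos2, the inducible nitric oxide synthase that makes nitric oxide from arginine, was at the limit of detection. Its counts were 0, 0 and 0 in control, 0, 0 and 2 with IL-4, and 1, 1 and 4 with IL-13. With IL-6 they were 1, 0 and 23 over IL-4 and 1, 0 and 11 over IL-13. A count of 23 in a library of this size corresponds to 0.294 FPKM, the highest level of Nos2 in the 15 libraries, and the other libraries of that group held 0 or 1 counts. In each treated group the library labelled replicate 3 held the highest Nos2 count. A level above the limit of 3 counts was thus seen in 3 libraries only, and no fold change of Nos2 is given.

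Arginine uptake showed different patterns for the transporter genes. Slc7a1, which encodes the widely expressed cationic amino acid transporter CAT1, was at 1.29, 1.22 and 1.41 FPKM in control. It was at 8.78, 9.64 and 8.29 FPKM with IL-4 and at 6.47, 9.28 and 8.58 FPKM with IL-13. With IL-6 it was at 8.49, 6.01 and 9.09 FPKM over IL-4 and at 6.57, 7.75 and 6.88 FPKM over IL-13. IL-4 lay above IL-6+IL-13, all other pairs of treated groups overlapped, and no treated group overlapped with control. Slc7a1 rose 7.04-fold with IL-4 (log2 2.82 ± 0.14, adjusted p = 1.51e-11, edgeR) and 6.32-fold with IL-13 (2.66 ± 0.14, adjusted p = 4.58e-11, edgeR). The difference made by IL-6 was -0.09 on the log2 scale with IL-4 (95% interval -0.35 to 0.17) and -0.13 with IL-13 (-0.39 to 0.13), and neither passed the test.

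Slc7a2, which encodes the cytokine-inducible transporter CAT2, was graded across the 5 groups. It was at 2.36, 2.73 and 2.24 FPKM in control, at 57.8, 54.2 and 53.2 FPKM with IL-4 and at 12.4, 19.6 and 17.6 FPKM with IL-13. With IL-6 it was at 85.6, 78.7 and 105 FPKM over IL-4 and at 25.98, 33.14 and 27.04 FPKM over IL-13. No groups overlapped, and the order was IL-4+IL-6, IL-4, IL-6+IL-13, IL-13 and control. Slc7a2 rose 23.3-fold with IL-4 (log2 4.54 ± 0.15, adjusted p = 1.61e-13, edgeR) and 6.88-fold with IL-13 (2.78 ± 0.15, adjusted p = 5.15e-11, edgeR). IL-6 raised it by a further 1.74-fold with IL-4 (0.80 ± 0.13, adjusted p = 8.02e-05, edgeR) and 1.82-fold with IL-13 (0.87 ± 0.13, adjusted p = 7.13e-05, edgeR). The difference between these effects was -0.07, with a 95% interval of -0.45 to 0.32. The FPKM ratio of Slc7a2 to Slc7a1 was 1.89 ± 0.331 (SD) in control, 6.21 ± 0.518 with IL-4, 11.6 ± 1.503 with IL-4+IL-6, 2.03 ± 0.1004 with IL-13 and 4.05 ± 0.194 with IL-6+IL-13. Slc7a2 shares exon bases with the antisense gene Gm26584, and the sources used here do not tell if counting was by strand.

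Ass1, the argininosuccinate synthase that rebuilds arginine from citrulline, was the only one of the tested genes to lie lower than control with IL-4 or IL-13. Its level was 3.08, 3.39 and 4.14 FPKM in control, 1.43, 1.54 and 1.25 FPKM with IL-4 and 1.35, 0.939 and 1.08 FPKM with IL-13. It was 3.65, 3.15 and 3.10 FPKM with IL-4+IL-6 and 1.12, 0.954 and 1.70 FPKM with IL-6+IL-13. IL-4+IL-6 overlapped with control, and the other treated groups lay below both and overlapped with each other. Ass1 fell by 1.28 ± 0.20 on the log2 scale with IL-4 (adjusted p = 2.02e-05, edgeR) and by 1.62 ± 0.20 with IL-13 (adjusted p = 2.49e-06, edgeR). IL-6 raised it 2.51-fold with IL-4 (log2 1.33 ± 0.20, adjusted p = 2.99e-05, edgeR), while with IL-13 the change of 0.23 ± 0.22 did not pass (adjusted p = 0.511, edgeR). The difference between the IL-6 effects was 1.10 ± 0.30 (adjusted p = 0.0298, edgeR). This call was lost in 8 of the fits that left out 1 library, and over all alternatives its adjusted p was between 0.00547 and 0.0949. Asl, the argininosuccinate lyase of the urea cycle (named after its values were seen), fell by 0.29 with IL-4 and 0.23 with IL-13. The ornithine transcarbamylase and carbamoyl phosphate synthetase genes Otc and Cps1 had at most 1 count in a library.

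Oat, the mitochondrial ornithine aminotransferase, moved within a narrow range. It was at 53.2, 49.9 and 49.8 FPKM in control, 62.5, 60.9 and 64.5 FPKM with IL-4 and 60.6, 63.3 and 57.7 FPKM with IL-13. It was at 70.1, 74.5 and 70.1 FPKM with IL-4+IL-6 and at 73.4, 73.5 and 69.3 FPKM with IL-6+IL-13. The levels fell into 3 steps that did not overlap, control lowest, then either cytokine alone, then either cytokine with IL-6. Oat rose 1.27-fold with IL-4 (adjusted p = 0.000203, edgeR), 1.21-fold with IL-13 (adjusted p = 0.00172), and with IL-6 by a further 1.23-fold over IL-4 (adjusted p = 0.00161) and 1.25-fold over IL-13 (adjusted p = 0.00124).

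The polyamine genes Odc1, Srm and Sms rose together with IL-4 or IL-13 and parted when IL-6 was added. Odc1, the rate-limiting ornithine decarboxylase, was at 10.5, 9.61 and 10.4 FPKM in control, 36.4, 37.3 and 37.2 FPKM with IL-4 and 36.4, 32.3 and 30.5 FPKM with IL-13. It was at 86.1, 86.5 and 76.1 FPKM with IL-4+IL-6 and at 53.9, 49.0 and 51.0 FPKM with IL-6+IL-13. Each group with IL-6 lay above each group without it, and IL-4 and IL-13 overlapped. Odc1 rose 3.76-fold with IL-4 (log2 1.91 ± 0.09, adjusted p = 6.99e-12, edgeR) and 3.32-fold with IL-13 (1.73 ± 0.09, adjusted p = 3.66e-11, edgeR). IL-6 raised it by 2.41-fold over IL-4 (1.27 ± 0.08, adjusted p = 1.52e-09, edgeR) and 1.63-fold over IL-13 (0.70 ± 0.08, adjusted p = 4.54e-06, edgeR). Here the effect of IL-6 was larger with IL-4 than with IL-13, by 0.57 ± 0.12 on the log2 scale (adjusted p = 0.00481, edgeR).

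Srm, the spermidine synthase, was at 7.77, 8.56 and 8.87 FPKM in control, 56.8, 55.9 and 54.1 FPKM with IL-4 and 52.1, 37.1 and 39.1 FPKM with IL-13. It was at 73.0, 78.1 and 73.4 FPKM with IL-4+IL-6 and at 47.3, 41.9 and 44.8 FPKM with IL-6+IL-13. The IL-13 libraries spread the most, with replicate 1 above all of IL-6+IL-13. Srm rose 6.84-fold with IL-4 (log2 2.77 ± 0.12, adjusted p = 3.98e-12, edgeR) and 5.197-fold with IL-13 (2.38 ± 0.12, adjusted p = 4.05e-11, edgeR). IL-6 raised it 1.44-fold over IL-4 (0.53 ± 0.11, adjusted p = 0.000700, edgeR). Over IL-13 the change was 0.13 ± 0.11 (adjusted p = 0.441, edgeR), and without IL-13 replicate 1 it was 0.30 and passed (adjusted p = 0.0113). The difference between the IL-6 effects did not pass the test (0.40 ± 0.15, adjusted p = 0.148, edgeR).

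Sms, the spermine synthase, was at 10.7, 10.7 and 9.73 FPKM in control, 18.9, 20.7 and 21.6 FPKM with IL-4 and 22.4, 20.4 and 19.7 FPKM with IL-13. It was at 10.5, 10.9 and 9.97 FPKM with IL-4+IL-6 and at 12.9, 11.9 and 11.5 FPKM with IL-6+IL-13. IL-4+IL-6 overlapped with control, IL-6+IL-13 lay just above it (log2 0.32 ± 0.08, adjusted p = 0.00307, edgeR), and the groups without IL-6 lay above these and overlapped with each other. Sms rose 2.03-fold with IL-4 (log2 1.02 ± 0.08, adjusted p = 1.19e-08, edgeR) and 2.04-fold with IL-13 (1.03 ± 0.08, adjusted p = 1.38e-08, edgeR). With IL-6 it fell by 0.86 ± 0.08 on the log2 scale over IL-4 (adjusted p = 2.26e-07, edgeR) and by 0.71 ± 0.08 over IL-13 (adjusted p = 3.90e-06, edgeR). It was the only one of the 7 tested genes that fell with IL-6. The related pseudogene Sms-ps held up to 386 counts in a library, so the Sms level is uncertain where reads fit both copies.

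The ratios between the polyamine transcripts were also compared. The FPKM ratio of Odc1 to Sms was 0.981 ± 0.0856 (SD) in control, 1.82 ± 0.105 with IL-4 and 1.59 ± 0.0434 with IL-13. It was 7.90 ± 0.262 with IL-4+IL-6 and 4.23 ± 0.175 with IL-6+IL-13, and no groups overlapped. The ratio of Srm to Sms was 0.812 ± 0.0926 in control, 2.74 ± 0.256 with IL-4, 7.15 ± 0.220 with IL-4+IL-6, 2.04 ± 0.262 with IL-13 and 3.69 ± 0.194 with IL-6+IL-13. The ratio of Odc1 to Oat, the enzymes that draw on the same ornithine, was 0.199 ± 0.00813 in control, 0.590 ± 0.0192 with IL-4, 1.16 ± 0.0704 with IL-4+IL-6, 0.546 ± 0.0489 with IL-13 and 0.712 ± 0.0397 with IL-6+IL-13.

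**Figure D4:**
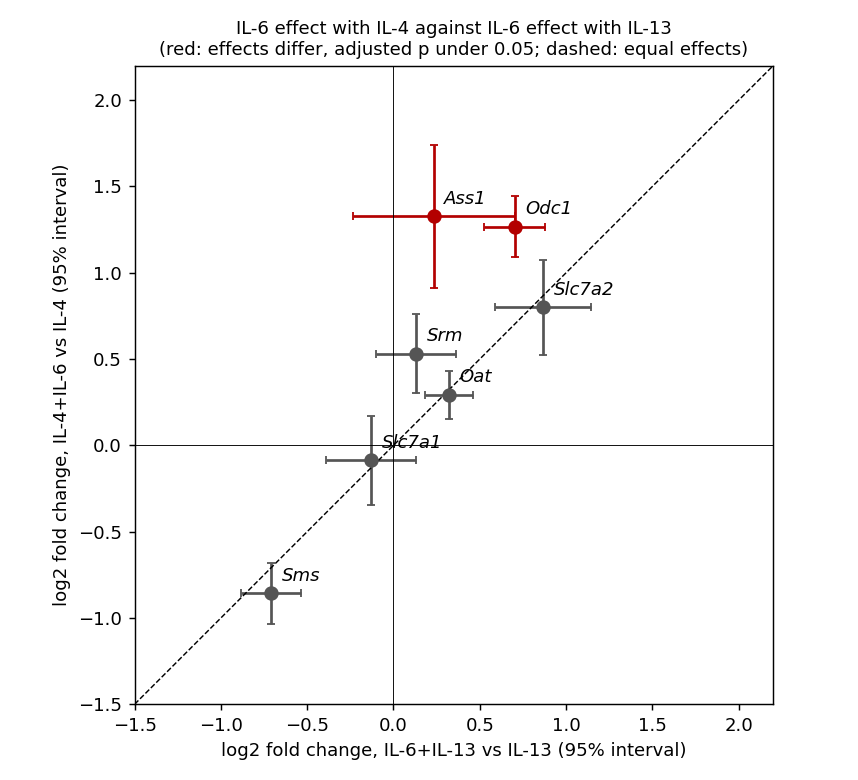
Log2 fold change with IL-6 over IL-4 alone (vertical axis) against that over IL-13 alone (horizontal axis), with 95% intervals (edgeR), for the 7 tested genes; the dashed line marks equal effects and red marks a difference that passed the test. Odc1 and Ass1 lie above the line, and Sms is negative on both axes.

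The stretches in front of the transcription starts are shown for a gene that rose further with IL-6, a gene that fell with it and a gene that IL-6 left within the interval given above, to let the reader set them side by side. Promoter windows from RefSeq (GRCm38.p6, 250 bases before to 50 after a start) were matched for 5 of the 8 genes, Ass1, Slc7a1, Oat, Odc1 and Sms, with 7 starts in all. The printed bases are 5′ to 3′ in the direction of transcription and end before the first exon base of the gene in GENCODE M21. They lie at chr12:17544623-17544793 (plus strand) for Odc1, chr5:148399905-148400154 (minus strand) for Slc7a1 and chrX:157492288-157492537 (minus strand) for Sms. Capitals mark matches, on either strand, to the letters GGGCGG (a GC box, bound by Sp1-type factors), TGANTCA (an AP-1 site) and CACGTG (an E-box, bound by Myc-type factors).
Odc1: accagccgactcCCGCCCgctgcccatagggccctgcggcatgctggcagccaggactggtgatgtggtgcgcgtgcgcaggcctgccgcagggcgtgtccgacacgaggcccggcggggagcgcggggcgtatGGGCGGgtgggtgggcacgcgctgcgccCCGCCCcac
Slc7a1: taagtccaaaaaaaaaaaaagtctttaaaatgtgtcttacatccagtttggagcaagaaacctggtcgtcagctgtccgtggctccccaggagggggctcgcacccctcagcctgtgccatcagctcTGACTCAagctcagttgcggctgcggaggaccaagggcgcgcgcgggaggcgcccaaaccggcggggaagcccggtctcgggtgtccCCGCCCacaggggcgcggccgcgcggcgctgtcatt
Sms: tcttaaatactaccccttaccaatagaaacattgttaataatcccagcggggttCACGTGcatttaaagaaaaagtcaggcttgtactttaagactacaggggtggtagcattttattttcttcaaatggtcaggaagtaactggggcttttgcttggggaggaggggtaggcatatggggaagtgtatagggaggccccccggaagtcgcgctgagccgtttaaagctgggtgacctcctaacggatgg
The Odc1 stretch holds 3 GC boxes, that of Slc7a1 an AP-1 site and a GC box, and that of Sms an E-box. A further GC box match of the Odc1 window, at -15 to -10 from the RefSeq start, lies past the printed stretch. The window of the other matched start of Sms, not printed, holds 4 matches to the GC box letters, some of which overlap. GGGCGG occurs in 35.7% of all 32851 such windows, TGANTCA in 7.81% and CACGTG in 7.15%. Of the 7 matched windows, GGGCGG was in 5, TGANTCA in 1 (Slc7a1) and CACGTG in 2 (Ass1 and Sms). Of these, Ass1 rose and Sms fell with IL-6 over IL-4. The spaced palindromes that STAT factors bind were also searched. TTCNNNGAA was in 1 of the 7 windows, that of the other start of Slc7a1, and in 8.30% of all windows. The form with 4 spacer bases was in 0 of the 7 and in 6.95% of all. These are matches of letters in short windows, and binding was not measured.

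Of the tested genes, Slc7a2 differed most when IL-4 and IL-13 were compared directly, at doses that differ (10 and 40 ng/ml). Of the 7, 2 were higher with IL-4 and 0 lower, against 12.8% of all tested genes called. Slc7a2 was 3.38-fold higher with IL-4 (log2 1.76 ± 0.13, adjusted p = 1.00e-07, edgeR). Srm was 1.32-fold higher (0.40 ± 0.11, adjusted p = 0.0229, edgeR), a call that was lost in 5 of the 6 fits that left out 1 of these libraries (adjusted p up to 0.141). The log2 difference was 0.18 for Odc1 (95% interval 0.00 to 0.36), 0.15 for Slc7a1 (-0.10 to 0.41), 0.34 for Ass1 (-0.12 to 0.81), -0.01 for Sms (-0.19 to 0.16) and 0.07 for Oat (-0.07 to 0.21). With IL-6 in both groups, 4 genes were higher with IL-4 and 0 lower, against 31.3% of all tested genes. These were Slc7a2 (log2 1.69 ± 0.13), Ass1 (1.44 ± 0.20), Odc1 (0.75 ± 0.08) and Srm (0.79 ± 0.11), with adjusted p between 3.98e-08 and 2.76e-05 (edgeR). The summed macrophage markers were lower with IL-4 than with IL-13, without IL-6 and with it, and the megakaryocyte markers were lower with IL-4+IL-6 than with IL-6+IL-13 (ranges above, without overlap), and their part in these differences was not tested.

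The other genes of these pathways were counted in 10 lists of 64 genes, the 8 above included, of which 53 could be tested. With IL-4 over control, 28 rose and 15 fell, and with IL-13, 27 rose and 13 fell, where 32.1% and 29% of all tested genes rose and 35.9% and 31.1% fell. In these control comparisons the granulocyte markers moved as well, from 463 to 550 CPM in control to at most 2.14 CPM, and their part in the list genes was not tested. Among polyamine synthesis genes, 6 of 6 tested rose with IL-4 and with IL-13. Besides Odc1, Srm and Sms these were Azin2, an antizyme inhibitor that protects ornithine decarboxylase, and the adenosylmethionine decarboxylases Amd1 and Amd2, close copies between which reads may be split. Azin2 rose by 1.90 on the log2 scale with IL-4 and 0.91 with IL-13, and IL-6 added 1.01 and 1.67. Its level was low, at 0.581 ± 0.0916 FPKM in control and 3.96 ± 0.700 FPKM with IL-4+IL-6.

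Of 7 genes of polyamine catabolism and transport, 5 fell and 0 rose with IL-4, and 4 fell and 0 rose with IL-13. Of all tested genes, 35.9% fell and 32.1% rose with IL-4, and 31.1% fell and 29% rose with IL-13. Sat1, which acetylates spermidine and spermine for export and breakdown, was at 189 ± 5.77 FPKM in control, 66.6 ± 3.29 FPKM with IL-4 and 63.3 ± 3.04 FPKM with IL-13, and fell by 1.46 and 1.55 on the log2 scale. Paox, the peroxisomal polyamine oxidase, fell by 1.41 and 1.10, and the lysosomal polyamine exporter gene Atp13a2 by 1.32 and 1.17. Atp13a3, of the same family, fell by 1.10 and 0.65. Smox, the spermine oxidase (named after its values were seen), fell by 0.72 with IL-4, and its change of -0.03 with IL-13 did not pass. With IL-6 over IL-4, 3 of the 7 rose and 2 fell, and over IL-13, 1 rose and 1 fell, where 39.4% and 25.6% of all tested genes were called. Atp13a2 rose on both backgrounds, by 0.66 over IL-4 and 0.50 over IL-13, and Smox fell by 0.60 and 0.42. Over IL-4 Paox rose by 0.70 and Atp13a3 by 0.31, and Slc18b1, a vesicular polyamine transporter (named after its values were seen), fell by 0.77.

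Methylthioadenosine, the by-product of spermidine and spermine synthesis, is recycled by the methionine salvage genes. Of the 7 genes of the list of methionine salvage and methionine adenosyltransferases, 3 rose and 1 fell with IL-4, and 3 rose and 2 fell with IL-13, where 68% and 60.1% of all tested genes were called. Mtap rose by 1.77 with IL-4 and 1.78 with IL-13, Mri1 by 1.44 and 1.02 and Enoph1 by 1.02 and 0.88. Adi1, of the same salvage route, fell by 0.62 and 0.59, and Mat2b, of the adenosyltransferase, fell by 0.19 with IL-13 (both named after their values were seen). Of the 4 hypusine genes, 3 rose and 1 fell with IL-4, and 2 rose and 0 fell with IL-13. Of all tested genes, 68% were called with IL-4 and 60.1% with IL-13. Eif5a, whose protein carries the spermidine-derived hypusine, rose by 1.83 and 1.28, from 169.5 ± 6.21 FPKM in control to 585 ± 8.51 FPKM with IL-4 and 403 ± 39.7 FPKM with IL-13, while its paralog Eif5a2 (named after its values were seen) fell by 0.57 with IL-4 and its change of -0.17 with IL-13 did not pass. Of the 6 genes of ornithine, proline and glutamate, 5 rose and 1 fell with either cytokine, where 32.1% and 29% of all tested genes rose with IL-4 and IL-13. Aldh18a1, which starts proline synthesis from glutamate, rose by 1.62 and 1.43, and the pyrroline carboxylate reductases Pycr1 by 2.30 and 1.87 and Pycr3 by 1.08 and 0.83. Prodh, the proline dehydrogenase, rose by 1.10 and 0.78. Of these only Oat and Aldh4a1 (0.84, named after its value was seen) rose with IL-6 over IL-4.

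With IL-4 or IL-13 over control, arginine and ornithine transport and the nitric oxide cofactor genes moved in both directions. Of 9 tested transport genes, 5 rose and 2 fell with either, where 68% and 60.1% of all tested genes were called. Besides Slc7a1 and Slc7a2, Slc7a6, Slc3a2 and Slc25a15 rose (named after their values were seen). With IL-6, 6 rose and 0 fell over IL-4, and 4 rose and 0 fell over IL-13 (39.4% and 25.6% called). Of 5 tested nitric oxide genes, 3 rose and 1 fell with either cytokine. Slc7a7, the light chain of an exchanger that exports arginine, fell by 2.09 with IL-4 and 1.53 with IL-13 and rose with IL-6 by 0.97 and 1.18. Slc66a1, a lysosomal exporter of cationic amino acids, fell by 0.37 with either cytokine and rose with IL-6 by 1.16 and 0.83. Among genes of tetrahydrobiopterin, the cofactor of nitric oxide synthases, Pts fell by 1.09 and 0.94 while Spr rose by 1.23 and 1.09 and Qdpr by 1.17 and 0.98. Ddah2, of the family that degrades methylated arginines, rose by 0.90 and 0.76 and with IL-6 by a further 1.39 and 1.20. Of the creatine genes, which draw on arginine, Gamt rose by 1.74 with IL-4 and 1.45 with IL-13, and Ckb by 0.69 and 0.90. With IL-6 over IL-4 Gamt fell by 0.92 and Ckb by 1.37, and over IL-13 the changes of -0.35 and -0.27 did not pass. The difference between these IL-6 effects passed for Ckb (-1.11, adjusted p = 0.000128, edgeR) and not for Gamt (-0.57, adjusted p = 0.0780, edgeR). Slc6a8, the creatine transporter (named after its values were seen), rose by 0.22 with IL-6 over IL-4 and fell by 0.34 over IL-13. Slc7a7, Paox, Qdpr and Azin1 share exon bases with a gene on the opposite strand, which limits their values in the same way as for Slc7a2. Aldh4a1 shares exon bases with Gm21969 on the same strand, between which counting by strand could not tell.

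**Figure D5:**
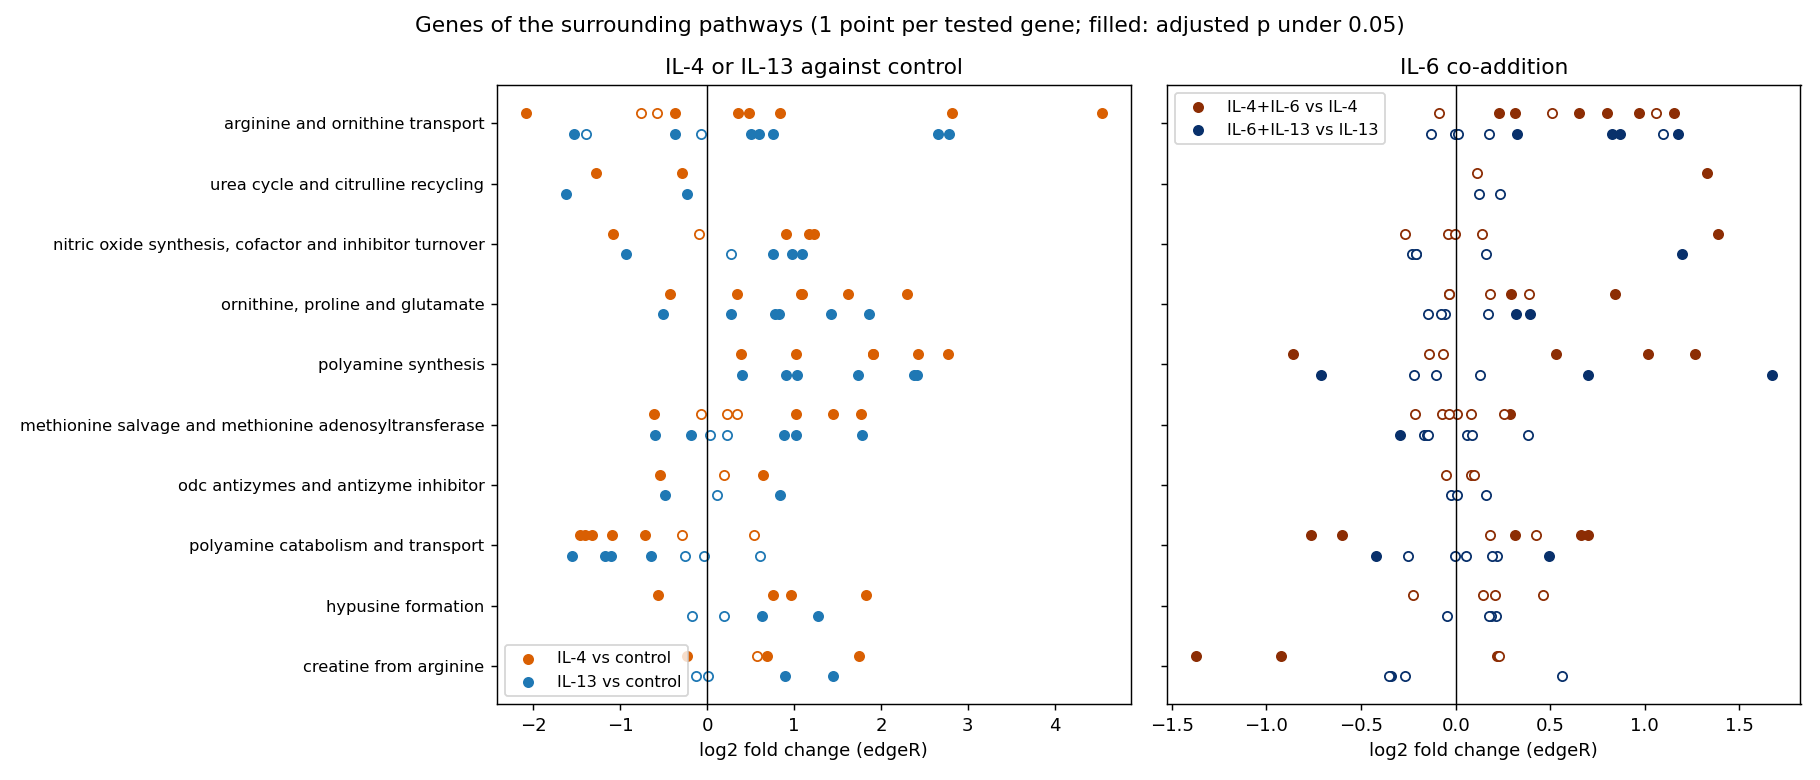
Log2 fold change (edgeR) of each tested gene of 10 lists around arginine and polyamines, for IL-4 and IL-13 over control (left) and for IL-6 added to either (right); filled points passed an adjusted p of 0.05 and the panels have different scales. All polyamine synthesis genes lie above 0 on the left, and no gene of polyamine catabolism and transport that passed does.

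The genes whose levels followed each of the tested genes most closely were found by Pearson correlation of log2 CPM over the 15 libraries, which fall into 5 groups and share their depth and library differences, so the values are descriptions. They are given for the genes whose group means spanned over 1 log2 unit. For Slc7a2 they were Tmem26 (r = 0.996), Bcar3 (0.994) and Atp6v0a1 (0.994). For Odc1 they were Drg2 (0.992), Ccl2 (0.992) and Rad23b (0.991), and for Srm Eif3b, Ybx3 and Fkbp4 (0.997 each). For Slc7a1 they included Rrp1b (0.991) and Cad (0.990), and for Sms Aunip (0.985), Lpl (0.983) and Anxa1 (0.980). Ass1 was followed by Aagab (0.969), Amz1 (0.959) and Rragd (0.947). With Spearman correlation at most 1 of the closest 3 genes was again among the closest 3 for any of them.

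In GRCm38 with GENCODE M21, all 8 are protein-coding genes. Nos2 lies at chr11:78920787-78960254, Slc7a1 at chr5:148327410-148399904 and Slc7a2 at chr8:40862396-40922308. Ass1 lies at chr2:31470207-31520672, Oat at chr7:132557478-132576398, Odc1 at chr12:17544794-17551505, Srm at chr4:148591503-148594993 and Sms at chrX:157443855-157492287. Values are per gene, and single transcripts were not resolved.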

How the data were processed

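RNA of 15 BMDM samples (5 groups, n = 3) was sequenced by a service company. Per the labels, the submitters' processing notes name the build GRCm38 and the tools CASAVA, Bowtie2 2.2.3, HISAT2 2.1.0, TopHat2 and DESeq2 without their roles, and the counting tool and its use of strand are not given in the sources used here. The authors deposited whole-number counts per gene, not normalized, for 53465 Ensembl identifiers (symbols were found for 53274). They also deposited FPKM values for 26080 genes, which were checked to be counts scaled to gene length and library total (268061 values, relative difference at most 7.35e-07). No columns of other samples were present.

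Counts were analyzed with edgeR 4.0.16 (limma 3.58.1, R 4.3.3) in 1 fit of all 15 libraries, with filterByExpr (minimum count 10), TMM factors (0.898 to 1.05) and the quasi-likelihood test without covariates. P-values were Benjamini-Hochberg adjusted over 13938 genes, and a call was an adjusted p under 0.05. Levels are means ± SD of the deposited FPKM, which do not carry the TMM factors, and fold changes come from the counts. Groups, replicate numbers and doses were taken from the labels. Replicates differed by more than counting noise in every pair (mean chi-square 2.60 to 42.2 per gene), and the biological coefficient of variation was 4.49% in control, 4.54% in IL-4, 14.9% in IL-4+IL-6, 10.9% in IL-13 and 7.38% in IL-6+IL-13. On simulated data with 200 changed genes, drawn for IL-6 added to IL-4, 162 were recovered with 13 false calls among 13938 genes. Far fewer genes were changed there than the 39.4% of tested genes called for this comparison in the real libraries. The real groups of this comparison also differed in their spread, as given above. The simulated counts therefore do not give the rate of false calls among the real ones.

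The 8 genes and the pathway and marker lists were chosen with earlier results of these data known. A few items of these lists are not reported here. Of the lists, genes called with a log2 fold change beyond 1 in IL-4 or IL-13 over control or with IL-6 over either were named, and for each of the 7 tested genes the 3 with the highest correlation of log2 CPM (prior count 2). Alternatives were DESeq2 1.42.0, upper-quartile factors, other filters, a replicate block, fits of fewer groups, the omission of each library in turn and, chosen after seeing the data, a fit of the 12 treated libraries.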

Additional observations from a re-analysis of the deposited data

Results flagged for a closer look

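The effect of IL-6 differed between the IL-4 and IL-13 backgrounds for 4 of the genes named by rule, by the test of the difference itself (edgeR's quasi-likelihood test over all 13938 genes, of which 7.64% were called). For Odc1 the log2 effect of IL-6 was 1.27 with IL-4 and 0.70 with IL-13, a difference of 0.57 ± 0.12 (SE, adjusted p = 0.00481), and for Ass1 it was 1.33 and 0.23, a difference of 1.10 ± 0.30 (adjusted p = 0.0298), a call that was lost in 8 of the fits that left out 1 library (adjusted p up to 0.0949). Paox, the polyamine oxidase, had effects of 0.70 and 0.22, a difference of 0.48 ± 0.12 (adjusted p = 0.0182). Ckb, the brain-type creatine kinase, had effects of -1.37 and -0.27, a difference of -1.11 ± 0.15 (adjusted p = 0.000128). Of the 53 tested pathway genes 6 were called in this comparison, and the others, named after their values were seen, were Slc6a8 and Adi1. Slc6a8, the creatine transporter, rose by 0.22 over IL-4 and fell by 0.34 over IL-13, a difference of 0.56 ± 0.08 (adjusted p = 0.000168). Adi1, of methionine salvage, had effects of 0.29 and -0.17, a difference of 0.46 ± 0.12 (adjusted p = 0.0209). Ckb differed in the negative direction and the other 5 in the positive.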

How the results depend on the processing

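Of 833 fold changes of the 7 tested genes recomputed under an alternative, 792 kept their direction and their side of the threshold, 13 lost their call, 5 gained one and 23 changed sign. No call of Slc7a2, Odc1, Oat or Sms in an IL-6 comparison was among the lost ones, which were 8 for the Ass1 difference between backgrounds and 5 for Srm in IL-4 over IL-13. The sign changes were of uncalled values, near 0 except for Ass1 with IL-6 added to IL-13. That value was 0.232, and it was -0.0661 without IL-6+IL-13 replicate 3. With upper-quartile factors they were Ass1 in IL-4+IL-6 over control (-0.0236), the Slc7a1 difference between IL-6 effects (-0.0091) and Sms in IL-4 over IL-13 (0.0168). Without a filter they were that Slc7a1 difference (-0.00025) and Sms (0.0056), and with only the compared libraries Sms (0.00045). Leaving out each library in turn gave ranges of -0.0555 to 0.0594 for Sms in IL-4 over IL-13, -0.0625 to 0.170 for the Slc7a1 difference, -0.194 to 0.0310 for Slc7a1 with IL-6 added to IL-4, -0.205 to 0.0823 for the Slc7a2 difference and -0.0982 to 0.00367 for the Oat difference. They were -0.0257 to 0.0702 for Oat in IL-4+IL-6 over IL-6+IL-13, -0.0487 to 0.163 for Ass1 in IL-4+IL-6 over control and -0.0661 to 0.399 for Ass1 in IL-6+IL-13 over IL-13. When a library was left out, the number of the 7 genes called in IL-4 over IL-13 (2) was 1 to 3, that for the difference of the IL-6 effects (2) was 1 to 2, and that of pathway genes in IL-4 over IL-13 (12) was 7 to 15; the cause was not tested. With the replicate number as a block, the counts of called genes stayed at 7 for IL-4 over control, 6 for IL-6 added to IL-4, 4 for IL-6 added to IL-13 and 2 for the difference of the IL-6 effects, while those of pathway genes went from 12 to 9 for IL-4 over IL-13, 14 to 13 for IL-6 added to IL-13, 40 to 39 for IL-13 over control and 39 to 40 for IL-6+IL-13 over control. Same-numbered libraries correlated at -0.276 to 0.163 in their deviations from the group means, with 3 of 30 pairs over 0.1. Only 2 of 15 libraries were closest to their own number. Some libraries of different number correlated more, such as IL-4+IL-6 replicate 2 and IL-13 replicate 1 (r = 0.393). Such correlations over all tested genes cannot tell whether libraries shared a mouse, culture or run. Levels in FPKM with TMM-scaled totals moved past 1 SD in 4 cases, Oat in control and Oat, Srm and Sms in IL-4+IL-6. Without a filter Nos2 was called for IL-6 added to IL-4 (adjusted p = 0.0111) and for IL-4+IL-6 and IL-6+IL-13 over control (0.000132 and 0.00477), groups in which 1 library held 23 and 11 counts and the others at most 1. Nos2 also entered fits that left out 1 library. It was called without IL-4+IL-6 replicate 1 (over control, 0.0142) or replicate 2 (over IL-4 and over control, 0.0307 and 0.00545), and in no fit without a control, IL-4, IL-13 or IL-6+IL-13 library. At 0 to 23 counts a library, low counts limit the precision of its values.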

Other observations

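Some genes of these pathways could not be tested because of their low counts. The neuronal and endothelial nitric oxide synthase genes Nos1 and Nos3 had at most 8 and 6 counts in a library, and Ddah1, which degrades methylated arginines, had at most 2. The antizyme gene Oaz3 had at most 3 counts and Agmat, of the agmatine route to putrescine, at most 1. Of the regulators of ornithine decarboxylase that were tested, the antizyme inhibitor gene Azin1 rose by 0.64 on the log2 scale with IL-4 and 0.83 with IL-13, and the antizyme gene Oaz2 fell by 0.55 and 0.48 (edgeR's quasi-likelihood test). The antizyme gene Oaz1, at 0.20 and 0.11, did not pass. Neither Azin1 nor Oaz2 passed the test with IL-6, where the log2 changes over IL-4 were 0.08 and 0.10. These genes were named after their values were seen.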
